A study of Mus musculus with 16 samples.

Results

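A set of 10 transcription factors and cofactors that shape B cells and act at their enhancers were followed in splenic B cells of mice that have or lack the 3'RR, the regulatory region at the 3' end of the antibody heavy chain locus. The 10 genes are Pax5, Ebf1, Ikzf1, Ikzf3, Pou2f1, Pou2f2, Pou2af1, Yy1, Spib and Irf8. They were taken by the gene name printed on the array, every probe was kept, and 15 of the array's 55681 non-control probes belonged to them, against 34832 gene names in all.

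RNA from B220+ splenic B cells, purified with beads that carry an anti-B220 antibody, was hybridised in Cy3 to 16 single-colour Agilent mouse arrays on 2 slides. Deficient mice are labelled 3'RR-deficient, with the 129 IgH allele knocked out in a BALBC background and BALBC entered as strain. Wild-type mice are labelled wild type, with 129 entered as strain. Slide 1 held 4 deficient arrays (replicates 9, 10, 11 and 12) and 4 wild-type arrays (replicates 2, 5, 6 and 8), and slide 2 held 4 deficient (replicates 1 to 4) and 4 wild-type arrays (replicates 1, 2, 3 and 5). All 16 labels give 0.2 µg of RNA and an RNA integrity number of 9, and neither age nor treatment. Genotype and the strain entry coincide on every array, so they cannot be told apart. The series text speaks of 4 animals for each genotype, there are 8 arrays for each, and no label ties an array to a mouse. The p-values therefore measure only how far these samples spread, and that spread may be technical.

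Several enhancers grouped behind the heavy chain constant genes make up the 3'RR, which drives heavy chain transcription and class switching in mature and activated B cells. Pax5 and Ebf1 set and hold B cell identity, and Pax5 and octamer-binding factors are known to bind within the 3'RR. Pou2af1 is a coactivator without DNA binding of its own that joins Pou2f1 or Pou2f2 on octamer sites. Ikzf1 and Ikzf3 are zinc finger factors that recruit chromatin remodellers, Yy1 bridges enhancers and promoters, and Spib and Irf8 are an Ets factor and an interferon regulatory factor that can occupy composite sites together.

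Both Pou2f2 probes and 1 Pax5 probe were among the 4 calls of the main comparison. Both probes of these genes are therefore shown, 5' to 3' in the sense of the transcript, since the probes of a gene did not always move alike. Capitals are not used because no part of a probe was singled out. Coordinates are mm9, as the array files give them; the exon and UTR annotation of that build was not used here.
Pax5 A_51_P122855: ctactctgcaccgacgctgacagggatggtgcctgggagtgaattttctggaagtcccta
Pax5 A_55_P2126394: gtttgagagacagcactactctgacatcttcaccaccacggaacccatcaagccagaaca
Pou2f2 A_51_P166728: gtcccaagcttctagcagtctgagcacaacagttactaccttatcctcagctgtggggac
Pou2f2 A_55_P2057877: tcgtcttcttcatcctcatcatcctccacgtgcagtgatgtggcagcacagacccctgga
The first Pax5 probe lies on the minus strand between chr4:44550354-44582908, a span of 32555 bases for 60 bases of probe, so it joins exons. The second lies unbroken at chr4:44658421-44658480. Of the Pou2f2 probes, also on the minus strand, A_51_P166728 joins exons across chr7:25878678-25879840 and A_55_P2057877 lies unbroken at chr7:25877735-25877794.

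Values below are log2 signal relative to the 75th percentile of the same array, so 0 is that percentile, and the values of a group are in the order of its replicates above. Levels are compared only within a probe. Differences are deficient minus wild type. A probe was called where limma's adjusted p, over all 32881 probes measured, was under 0.05. All 15 probes were well above background on all 16 arrays and none was saturated.

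Over both slides, both probes of the octamer factor Pou2f2, that of its coactivator Pou2af1 and 1 Pax5 probe were higher in the deficient B cells. These differences were 18.1% to 28.8%. The other Pax5 probe was not called, and neither Pax5 probe was called on slide 1. No probe of the 10 genes was called lower in limma's test, with Yy1 the 1 probe lower at an unadjusted p under 0.05. The 4 called probes of 15 stand beside a background of 16.8% of all probes called in either direction, with 7.58% higher and 9.22% lower. Of all called probes 45.1% were higher, against 59.8% with array medians as the scale. The median difference of the 15 probes was 0.07, against -0.03 over all probes. These counts and medians describe the 10 genes only.

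**Figure D1:**
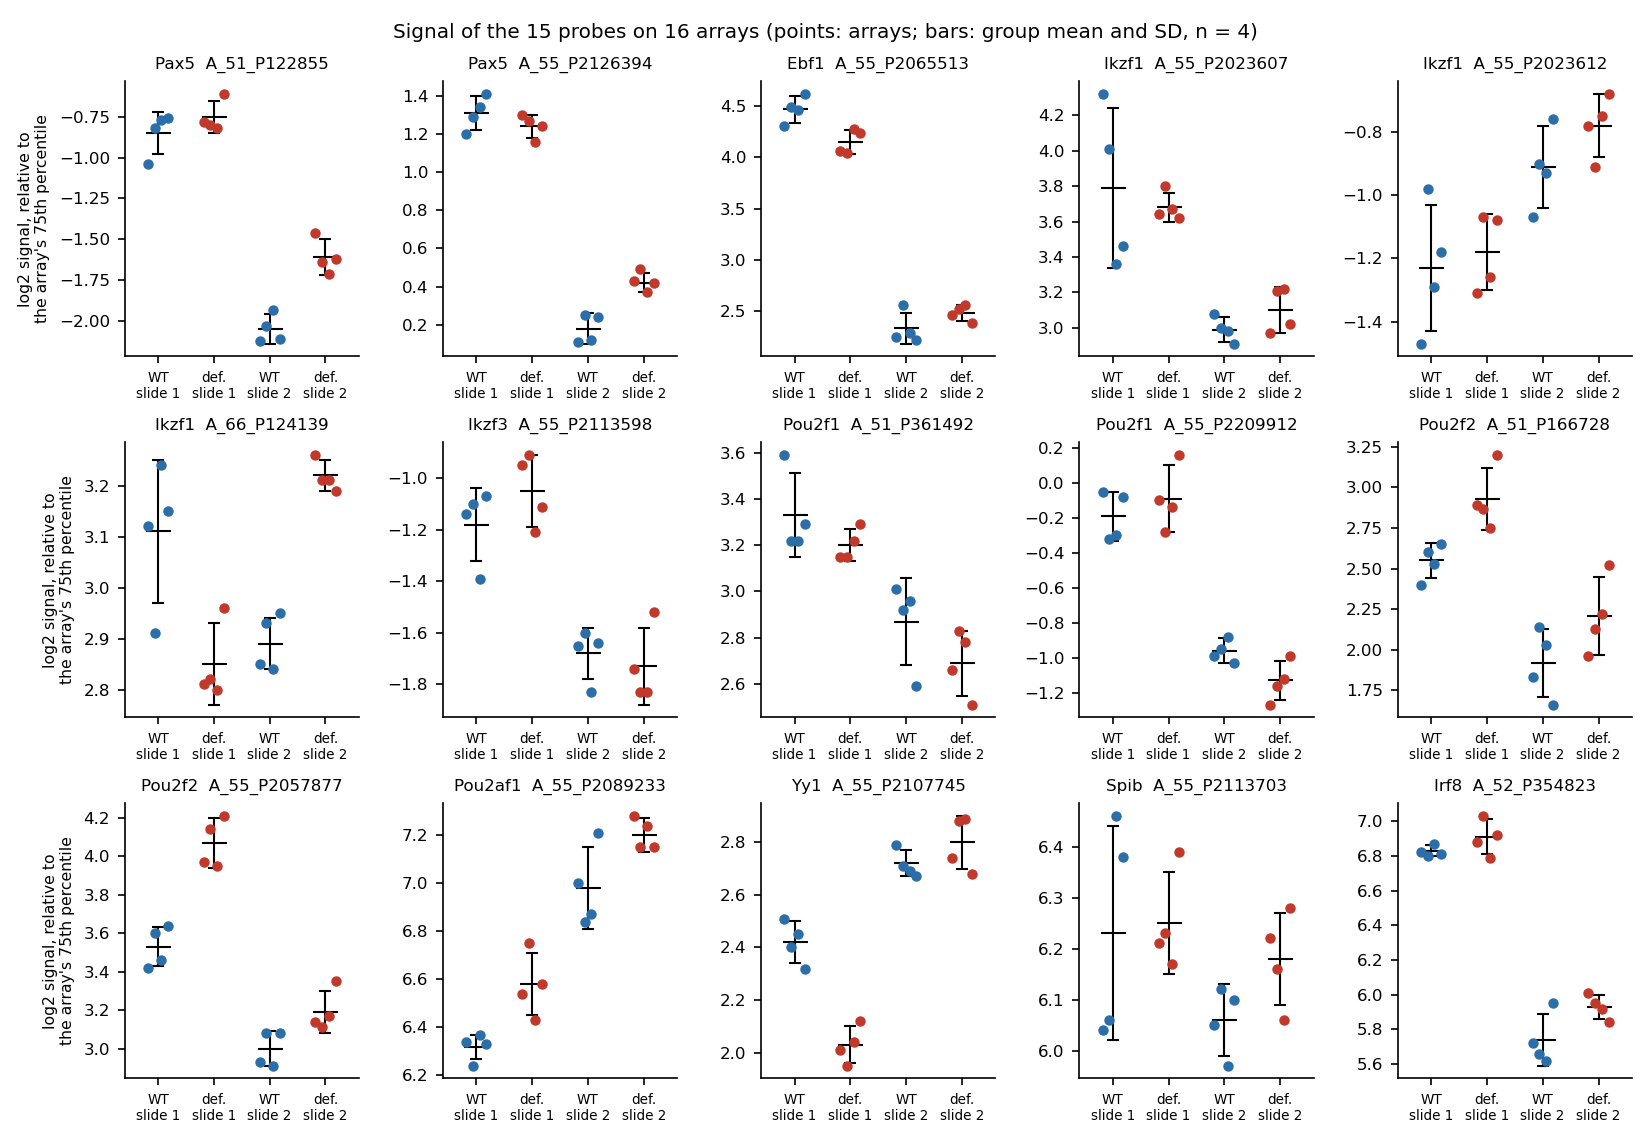
Log2 signal relative to the array's 75th percentile (vertical axis, own scale in each panel) for each of the 15 probes on all 16 arrays, by genotype and slide (WT, wild type; def., deficient; points, arrays; bars, mean and SD, n = 4). The deficient arrays lie above the wild-type arrays on both slides for Pou2f2 probe A_55_P2057877, and Ebf1 lies about 1.91 lower on slide 2 than on slide 1.

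Pou2f2 encodes Oct-2, the octamer-binding POU factor enriched in B cells. With probe A_55_P2057877 the deficient arrays read 3.97, 4.14, 3.95 and 4.21 on slide 1, and the wild-type arrays 3.42, 3.6, 3.46 and 3.64. On slide 2 the deficient arrays read 3.14, 3.11, 3.17 and 3.35 and the wild-type arrays 2.93, 3.08, 2.91 and 3.08. The deficient arrays were thus the higher 4 on each slide, with no overlap. Genotypes did not overlap for 21.6% of all probes on slide 1 and for 22.8% on slide 2, in either direction. The difference over both slides was 0.37 (SE 0.061, adjusted p = 0.00119), which is 1.29-fold. It was 0.54 on slide 1 (SE 0.086, adjusted p = 0.000926) and 0.19 on slide 2 (SE 0.086, adjusted p = 0.213). The slides' differences were not called unlike (-0.34, SE 0.122, adjusted p = 0.076), but they were with quantile normalization (-0.53, adjusted p = 0.0158) and with a trended robust prior (adjusted p = 0.0462). With array weights slide 2 also passed (adjusted p = 0.0384). This call over both slides, and that on slide 1, held under every alternative run for them, 28 and 27 in number.

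The exon-joining Pou2f2 probe A_51_P166728 gave a similar difference with wider spread. Its deficient arrays read 2.89, 2.87, 2.75 and 3.20 on slide 1, above all 4 wild-type arrays at 2.40, 2.60, 2.53 and 2.65. On slide 2 the deficient arrays at 1.96, 2.13, 2.22 and 2.52 overlapped the wild-type arrays at 1.83, 2.14, 2.03 and 1.66. Over both slides the difference was 0.34 (SE 0.096, adjusted p = 0.0287). The call was lost without deficient replicate 12 or wild-type replicate 2 of slide 1 (adjusted p = 0.0516 and 0.0535), without deficient replicate 4 of slide 2 (0.0539), without wild-type replicates 1 or 5 of slide 2 (0.0588 and 0.0517), and with no filter on dim probes (0.0595). On slide 1 alone its difference was 0.38 (SE 0.136, adjusted p = 0.0582), which passed without deficient replicate 11 of slide 1 or without deficient replicate 4 or wild-type replicate 5 of slide 2 (0.0483, 0.0416 and 0.0459). It also passed with quantile normalization, a filter asking for all 16 arrays, a trended robust prior and the authors' table (0.0243 to 0.0401).

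Pou2af1 encodes OCA-B (also Bob1), which B cells need for germinal centres. Its probe, A_55_P2089233 at chr9:51048121-51048180 on the plus strand, read 6.54, 6.75, 6.43 and 6.58 on the deficient arrays of slide 1 and 6.34, 6.24, 6.37 and 6.33 on the wild-type arrays, with no overlap. On slide 2 it read 7.28, 7.15, 7.24 and 7.15 against 7.00, 6.84, 6.87 and 7.21, where wild-type replicate 5 reached into the deficient range. The difference was 0.24 over both slides (SE 0.064, adjusted p = 0.0198), 0.26 on slide 1 (adjusted p = 0.0543) and 0.22 on slide 2 (adjusted p = 0.162). With no filter on dim probes the adjusted p over both slides was 0.0512. Slide 1 passed without deficient replicate 11 of that slide (0.0354), and both slides passed singly without wild-type replicate 5 of slide 2 (0.0268 and 0.0493). Slide 1 passed as well with quantile normalization, normexp, a filter asking for all 16 arrays, 1 value per gene (brightest or mean), a trended robust prior and the authors' table (0.00325 to 0.0488), and slide 2 with array weights (0.00428) and on its arrays numbered 1 to 3 alone (0.0498). In these bulk samples, a change in the share of a cell type and a change in RNA per cell cannot be told apart. The median difference of plasma cell markers was 0.62 on slide 1 and -1.22 on slide 2. Irf4 was lower on both slides (-0.605 and -0.334), with a call on slide 1 only. Of 6 such genes (Sdc1, Prdm1, Xbp1, Igj, Tnfrsf17 and Irf4), 3 were called higher and 1 lower on slide 1, and none higher and 4 lower on slide 2. The signals of a list's measured genes were added before taking log2 (summed log2 signal, here and below), so the brightest genes weigh most. For the plasma cell genes it ranged from 7.91 to 8.91 on the deficient and 7.20 to 7.91 on the wild-type arrays of slide 1. On slide 2 it ranged from 7.26 to 7.66 and 7.69 to 8.13. All 6 were measured, and their part in the result was not tested.

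Pou2f1, which encodes the widely expressed Oct-1, did not pass the test with either probe. Probe A_51_P361492 (chr1:167805639-167805698, minus strand) differed by -0.15 over both slides (SE 0.079, adjusted p = 0.22, 95% interval -0.32 to 0.02). Probe A_55_P2209912 (chr1:167821968-167822027) differed by -0.04 (adjusted p = 0.777, interval -0.19 to 0.12). On each slide the genotypes overlapped with both probes. With array weights both passed as lower on slide 2 (-0.22 and -0.19, adjusted p = 0.0385 and 0.0495).

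The octamer these factors bind is ATGCAAAT. RefSeq start sites of the GRCm38.p6 assembly give 14 windows, from 250 bases before to 50 after the start, for 9 of the 10 genes. None of the 14 held the full octamer on either strand, which 1.7% of all 32851 windows hold. The octamer without its first base, TGCAAAT, was in 2 of the 14 windows and in 4.0% of all. Those 2 are shown because 1 belongs to Pou2af1, which rose with Pou2f2; the match is in capitals, lies on the strand of the gene, and is a match of letters only.
Pou2af1 (GRCm38.p6, plus strand, chr9:51213444-51213480, match 231 bases before the start): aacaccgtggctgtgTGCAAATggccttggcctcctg
Spib (GRCm38.p6, minus strand, chr7:44532298-44532321, match 248 bases before the start): ccTGCAAATcttttgtctcactcc
Other letters searched on both strands in the 14 windows were CCCNNGGG for EBF (3 windows, 13.7% of all), TGGGAA for Ikaros (4 windows, 25.6%), GAGGAA for PU.1 and its relative Spi-B (6 windows, 28.3%), the Ets-IRF composite (1 window, of Pou2f2, and 2.7% of all) and CCATNTT for YY1 (3 windows, 16.1%).

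**Figure D2:**
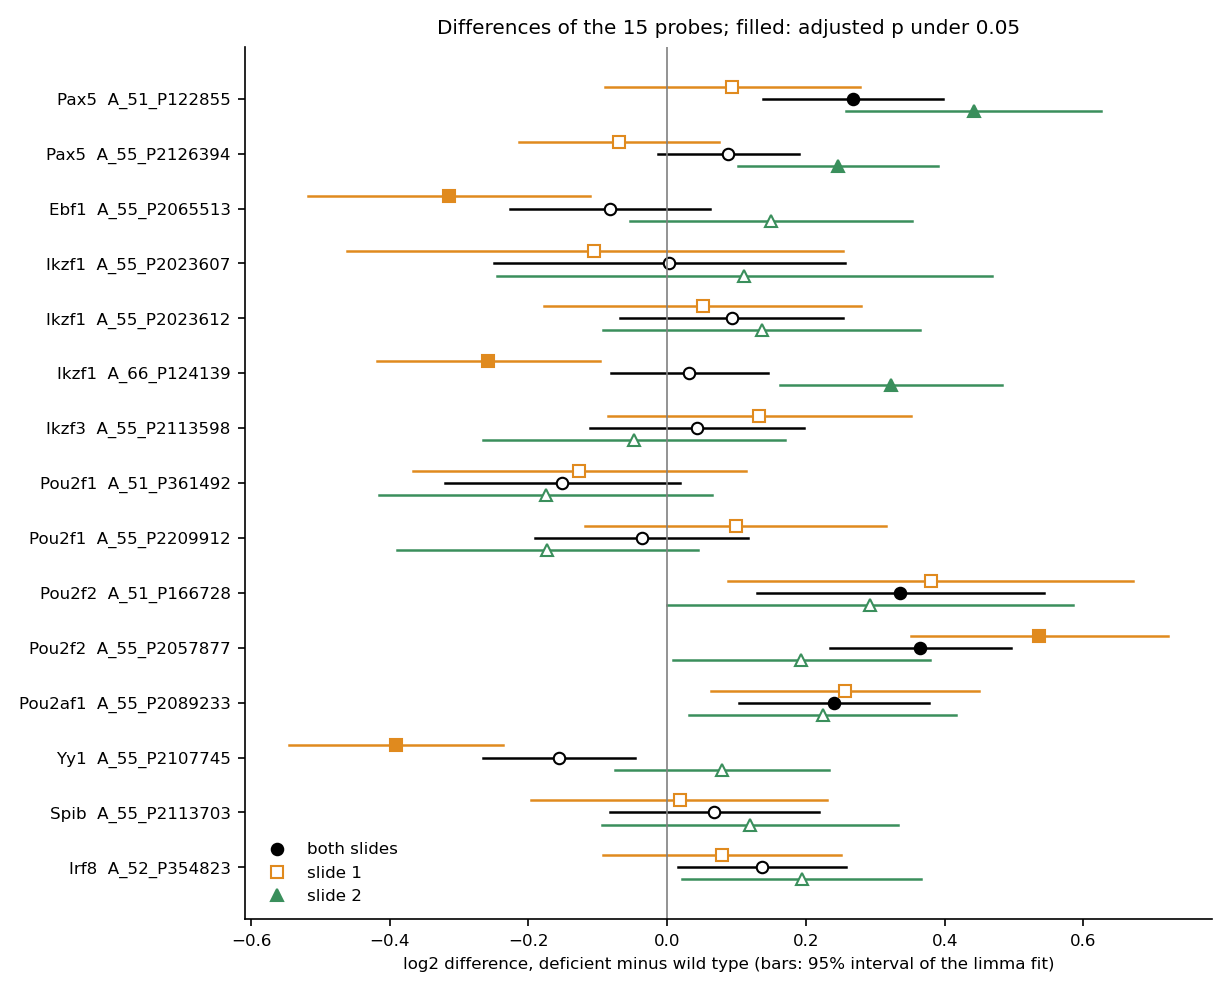
Log2 difference, deficient minus wild type, of each of the 15 probes with the 95% interval of the limma fit (horizontal axis), over both slides (circles), on slide 1 (squares) and on slide 2 (triangles); filled symbols have an adjusted p under 0.05. Over both slides the filled symbols are Pax5 A_51_P122855 and both Pou2f2 probes and Pou2af1, all to the right of 0, and slide 1 has 3 filled symbols to the left.

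Pax5, which encodes the paired-box factor that commits cells to the B lineage, was higher on slide 2 with both probes. With the exon-joining probe A_51_P122855 the deficient arrays of slide 2 read -1.46, -1.64, -1.71 and -1.62, above the wild-type arrays at -2.12, -2.03, -1.93 and -2.11. On slide 1 the deficient arrays at -0.78, -0.80, -0.82 and -0.61 overlapped the wild-type arrays at -1.04, -0.82, -0.77 and -0.76. The difference was 0.44 on slide 2 (SE 0.086, adjusted p = 0.00573), 0.09 on slide 1 (adjusted p = 0.456) and 0.27 over both (SE 0.061, adjusted p = 0.00848). With slide as a random block the last lost its call (adjusted p = 0.0668).

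The other Pax5 probe, A_55_P2126394, read 0.43, 0.49, 0.37 and 0.42 on the deficient arrays of slide 2 and 0.11, 0.25, 0.12 and 0.24 on the wild-type arrays, again with no overlap. On slide 1 it read 1.30, 1.27, 1.16 and 1.24 against 1.2, 1.29, 1.34 and 1.41, and the genotypes overlapped. Its difference was 0.25 on slide 2 (SE 0.067, adjusted p = 0.0399), -0.07 on slide 1 (adjusted p = 0.48) and 0.09 over both slides (adjusted p = 0.235). The slide 2 call was lost in 12 of 29 alternatives, among them the fit without any 1 of deficient replicates 1, 2, 3 or 4 or wild-type replicates 1, 2 or 3 of slide 2, or without deficient replicate 12 of slide 1.

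Slide 2 called 3 of the 15 probes higher, both Pax5 probes and 1 of Ikzf1, and none lower (none at an unadjusted p under 0.05 either), beside 7.46% of all probes called on that slide (3.65% higher, 3.82% lower). Higher ones were 48.9% of all calls there, and 65.4% with array medians. Markers of other cells moved on the same slide. Of 6 erythroid genes, 5 were measured and 3 were higher: Hba-a1 by 4.93, and Hbb-b1 and Hbb-b2, which were well above background on the 4 deficient and on 0 of the wild-type arrays, with summed log2 signals of 1.22 to 3.50 on the deficient and -2.87 to -2.49 on the wild-type arrays. Of 10 T cell genes, 3 were higher there (Cd3d, Cd3g and Lck; 1 with normexp) and none lower, Cd3g being well above background on 0 arrays of that slide, while their summed signals overlapped (6.29 to 6.96 and 6.22 to 6.78). Of 8 genes of immature B cells, 5 were measured and 3 were lower on slide 2 (Il7r, Myb and Vpreb1; 0 with array medians and 1 with normexp), with summed signals of 3.55 to 4.35 against 4.43 to 4.68. Igll1 and Rag2 were above background on 0 arrays and Rag1 on 3. Over both slides limma called 1 of 10 macrophage genes higher (Lyz1), none of 6 natural killer cell genes (1 higher at an unadjusted p under 0.05) and none of the 3 platelet genes measured of 5 (none at an unadjusted p under 0.05). The part of these cells in the Pax5 and Ikzf1 values was not tested. All 10 B cell markers on the list, among them Cd79a, Cd79b, Ms4a1 and Cd22, were well above background on all 16 arrays. Their summed log2 signals lay between 10.06 and 11.03. On slide 2 they were 10.25 to 10.33 on the deficient and 10.06 to 10.24 on the wild-type arrays. Limma called 1 of the 10 markers higher in the deficient arrays of slide 2 and none lower. Their median difference there was 0.15, or 0.07 with quantile normalization. The part of the B cell list in the Pax5 and Ikzf1 values was not tested. Slide 2 minus slide 1, averaged over genotypes, single markers differed by -6.59 to 0.11, with 7 called lower and none higher.

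Ebf1 encodes the pioneer factor that opens B lineage chromatin ahead of Pax5. Its probe, A_55_P2065513 at chr11:44818438-44818497 on the plus strand, read 4.06, 4.04, 4.28 and 4.24 on the deficient arrays of slide 1, below the wild-type arrays at 4.31, 4.49, 4.46 and 4.62. On slide 2 it read 2.46, 2.52, 2.56 and 2.38 against 2.25, 2.56, 2.29 and 2.22, with overlap. The difference was -0.32 on slide 1 (SE 0.095, adjusted p = 0.0288), 0.15 on slide 2 (adjusted p = 0.407) and -0.08 over both (adjusted p = 0.449). The slide 1 call was lost in 11 of 27 alternatives: without deficient replicates 9 or 10 or wild-type replicates 5, 6 or 8 of slide 1 (adjusted p between 0.051 and 0.0805), and with array weights, no filter, slide 1 alone, the array median, quantile normalization or the authors' value table (0.0541 to 0.106).

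Ikzf1, which encodes Ikaros, had 3 probes. Probe A_66_P124139 (chr11:11672828-11672887, plus strand) read 2.81, 2.82, 2.80 and 2.96 on the deficient arrays of slide 1 and 3.12, 2.91, 3.24 and 3.15 on the wild-type arrays. On slide 2 it read 3.26, 3.21, 3.21 and 3.19 against 2.85, 2.93, 2.84 and 2.95. The deficient arrays were thus higher without overlap on slide 2, and on slide 1 they lay lower, with deficient replicate 12 above wild-type replicate 5. The difference was -0.26 on slide 1 (SE 0.075, adjusted p = 0.0247), 0.32 on slide 2 (SE 0.075, adjusted p = 0.0175) and 0.03 over both (adjusted p = 0.733).

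The slide 1 call of that probe was lost without deficient replicates 9, 10 or 11 or wild-type replicates 6 or 8 of slide 1 (adjusted p between 0.0523 and 0.068), and with array medians, quantile normalization, no filter, slide 1 alone or the authors' table (0.0597 to 0.137). Leaving out deficient replicate 1 or wild-type replicates 1 or 3 of slide 2 ended the slide 2 call (0.0515, 0.0598 and 0.056). So did fitting with no filter (0.0531) and with replicate number as a block on arrays numbered 1 to 3 of slide 2 (0.083). The remaining Ikzf1 probes passed in no contrast between the genotypes. Probe A_55_P2023612 (chr11:11669493-11669552) differed by 0.09 over both slides (SE 0.075, adjusted p = 0.446, interval -0.07 to 0.25). Probe A_55_P2023607 (chr11:11661344-11661403) differed by 0.00 (SE 0.118, adjusted p = 0.989, interval -0.25 to 0.26), and its wild-type arrays of slide 1 spread widely, at 4.32, 4.01, 3.36 and 3.46.

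Ikzf3 encodes Aiolos, the Ikaros relative of maturing B cells. Its probe, A_55_P2113598 (chr11:98326176-98326235, minus strand), differed by 0.04 over both slides (SE 0.072, adjusted p = 0.739, interval -0.11 to 0.20), and the genotypes overlapped on each slide.

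Yy1 encodes a zinc finger factor that has been tied to looping at the heavy chain locus, and it shares chromosome 12 with that locus. Its probe, A_55_P2107745 at chr12:110054782-110054841 on the plus strand, lies 4.37 Mb from Tmem121, the gene next to the 3'RR. On slide 1 the deficient arrays read 2.01, 1.95, 2.04 and 2.12, below the wild-type arrays at 2.51, 2.40, 2.45 and 2.32. On slide 2 the deficient arrays at 2.74, 2.88, 2.89 and 2.68 overlapped the wild-type arrays at 2.79, 2.71, 2.69 and 2.67. Yy1 fell on slide 1 by 0.39 on the log2 scale (SE 0.072, adjusted p = 0.00211), and its slide 2 difference was 0.08 (adjusted p = 0.599). The slide 1 call held in all 27 alternatives run for it. Over both slides the value was -0.16 (SE 0.051, adjusted p = 0.0501), just outside the threshold, and 7 of 28 alternatives brought it inside, with adjusted p between 0.0299 and 0.306 over all 28. Those 7 include the fits without deficient replicate 12 or wild-type replicate 8 of slide 1 or deficient replicate 3 of slide 2 (0.0422, 0.041 and 0.0493).

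Slide 1 called 1 of the 15 probes higher (Pou2f2 A_55_P2057877) and 3 lower (Ebf1, Ikzf1 A_66_P124139 and Yy1), beside 23.3% of all probes called there, 9.18% higher and 14.1% lower. With quantile normalization 3 were higher (both Pou2f2 probes and Pou2af1) and 1 lower (Yy1). On the same slide 3 of the 10 B cell markers were lower (Blnk by 0.30, Cr2 by 0.53 and Ms4a1 by 0.37 on the log2 scale) and none higher, with summed log2 signals of 10.74 to 10.90 on the deficient and 10.79 to 11.03 on the wild-type arrays. Of the erythroid genes limma called none on slide 1, and 1 was lower at an unadjusted p under 0.05. The part of either list in these values was not tested.

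The difference between the slides was called for 4 of the 15 probes, beside 13.9% of all probes (8.72% with the larger value on slide 2, 5.14% with the smaller). Larger values were 62.9% of all calls, and 48.1% with quantile normalization, where the 15 probes gave 2 larger (Ikzf1 and Yy1) and 1 smaller (Pou2f2 A_55_P2057877). In the main scaling all 4 had the larger value on slide 2: Ikzf1 A_66_P124139 by 0.58 (SE 0.106, adjusted p = 0.00479), Yy1 by 0.47 (SE 0.102, adjusted p = 0.0107), Ebf1 by 0.47 (SE 0.134, adjusted p = 0.0355) and Pax5 A_55_P2126394 by 0.32 (SE 0.095, adjusted p = 0.0419). Those of Ikzf1 and Yy1 held in every alternative run, 23 and 25. That of Ebf1 was lost in 13 of 25. Leaving out 1 array kept it only for deficient replicates 11 or 12 or wild-type replicate 2 of slide 1 and deficient replicate 4 or wild-type replicate 2 of slide 2 (otherwise adjusted p between 0.0525 and 0.074). That of Pax5 was lost in 16 of 25, and leaving out 1 array kept it only for wild-type replicate 2 of slide 1 and wild-type replicate 5 of slide 2 (otherwise 0.0514 to 0.0895). For Pax5 A_51_P122855 the value was 0.35 (adjusted p = 0.0705), and it passed without deficient replicate 12 or wild-type replicate 2 of slide 1 (0.0477 and 0.03) and with a filter asking for all 16 arrays (0.0476).

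**Figure D3:**
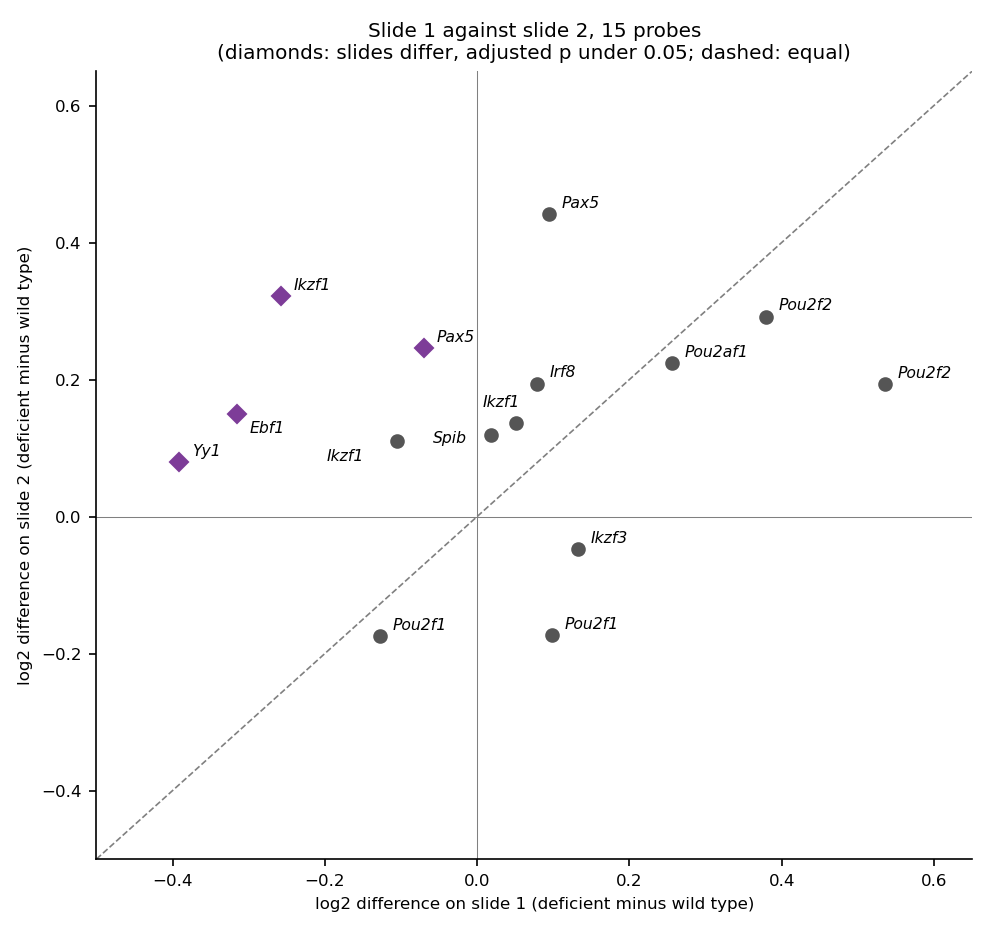
Log2 difference on slide 1 (horizontal axis) against that on slide 2 (vertical axis), deficient minus wild type, for the 15 probes; diamonds mark the 4 probes whose slides differ at an adjusted p under 0.05 and the dashed line marks equal values. The diamonds (Ikzf1, Pax5, Ebf1 and Yy1) lie left of 0 and above the horizontal zero line, and both Pou2f2 probes and Pou2af1 lie right of 0 and above it.

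Spib, an Ets factor close to PU.1, and Irf8, an interferon regulatory factor of B cells and dendritic cells, did not pass in any contrast between the genotypes. Spib (A_55_P2113703, chr7:51781392-51781451, minus strand) differed by 0.07 over both slides (SE 0.07, adjusted p = 0.563, interval -0.08 to 0.22). Irf8 (A_52_P354823, chr8:123280324-123280383, plus strand) differed by 0.14 (SE 0.057, adjusted p = 0.121, interval 0.02 to 0.26). On slide 2 the Irf8 deficient arrays read 6.01, 5.95, 5.92 and 5.84 and the wild-type arrays 5.72, 5.66, 5.62 and 5.95. Without wild-type replicate 5 of slide 2, the one inside the deficient range, the Irf8 difference passed over both slides and on slide 2 (adjusted p = 0.0291 and 0.0471), and so it did with array weights (0.0294 and 0.00283); slide 2 also passed on its arrays numbered 1 to 3 alone (0.0389). Plasmacytoid dendritic cells express both factors strongly: of 8 of their markers 1, Lag3, was called higher over both slides and none lower, though 2 were lower at an unadjusted p under 0.05. Siglech, their defining marker, was well above background on all 16 arrays and differed by -0.06 (adjusted p = 0.566), and the summed log2 signals overlapped on each slide (7.84 to 7.93 on the deficient and 7.90 to 8.18 on the wild-type arrays of slide 1, 7.68 to 7.80 and 7.56 to 7.95 on slide 2). Their part in the Spib and Irf8 values was not tested.

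The level of the 10 genes also differed between the slides, which held different samples. Averaged over genotypes, 10 of the 15 probes were lower on slide 2, 3 were higher, and 81.5% of all probes were called, 53.2% higher and 28.3% lower. Ebf1 was lower by 1.91, Irf8 by 1.03 and Pax5 by 1.03 and 0.97, while Pou2af1 was higher by 0.65 and Yy1 by 0.53. The median of all genes was 0.38 higher on slide 2 with the 75th percentile scaling and 0.04 higher with array medians, so single levels across slides depend on the scaling. Markers of other cells moved with these levels. Called lower on slide 2 were all 10 macrophage genes (median -5.48), all 6 natural killer cell genes (-5.26, or -2.40 with normexp), 4 of 5 erythroid genes (-7.59), 8 of 10 T cell genes (-2.92, or -1.52 with normexp; 1 higher), 6 of 8 plasmacytoid dendritic cell genes (-1.69, or -0.75 with normexp; 2 higher) and 7 of 10 B cell genes (-0.62). On slide 2, 2 of the macrophage, 2 of the natural killer, 1 of the T cell and 1 of the dendritic cell genes were well above background on 0 arrays. The summed log2 signal of the macrophage genes was 6.29 to 7.35 on slide 1 and 4.15 to 4.78 on slide 2, that of the natural killer cell genes 3.29 to 4.80 and 1.5 to 2.07, and that of the erythroid genes 6.06 to 8.72 and -2.87 to 3.50. Their part in the levels of the 10 genes was not tested. Array pairs correlated at 0.98 to 0.996 within a group, 0.968 to 0.985 between genotypes on a slide and 0.886 to 0.914 between slides. Within groups, the pooled SD of the 15 probes ran from 0.07 to 0.19 for all but Ikzf1 A_55_P2023607 (0.24), beside a median of 0.23 over all probes. That median takes in probes well above background on as few as 4 of the 16 arrays, while the 15 probes were so on all 16.

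Genes related to the 10 by family, partnership or control were read from lists, with the brightest probe standing for a gene. Of 22735 genes tested this way over both slides, 17.6% were called, 7.64% higher and 9.95% lower, with a median difference of -0.03.

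Of 27 family relatives (other Pax, Ebf, Ikaros, POU2, PU.1-type, interferon regulatory and Yy1-type factors), 18 were measured, 2 rose and 1 fell, and the median was 0.04 (-0.01 with normexp background correction). Irf7, which amplifies type I interferon transcription, was higher by 1.00 (SE 0.178, adjusted p = 0.00179). Its deficient and wild-type means were 1.38 and 0.08 on slide 1 and -0.32 and -1.02 on slide 2. Irf9, the DNA-binding part of the interferon-induced ISGF3 complex, was higher by 0.48 (SE 0.08, adjusted p = 0.00108). Irf4, which drives plasma cell fate and pairs with Spi-B and PU.1, fell by 0.47 (adjusted p = 0.00939). Its wild-type and deficient means were 4.48 and 3.87 on slide 1 and 4.22 and 3.89 on slide 2. These 3 calls held in all 20 alternatives run for the listed genes, and on each slide the 3 differences had the sign given.

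Partner factors numbered 29, all measured, with 3 higher, 4 lower and a median of -0.08. Bach2, the repressor that holds back plasma cell fate, rose by 0.66 (SE 0.095, adjusted p = 0.000311) and its second probe differed by 0.23. Usf1, an E-box factor, fell by 0.83 (SE 0.084, adjusted p = 1.32e-05). Its wild-type mean was 0.34 and its deficient mean -0.57 on slide 1, and -1.22 and -1.97 on slide 2. Both held in all 20 alternatives. Of the others, Foxp1 (0.29, adjusted p = 0.0238) lost its call in 3 alternatives. It was -0.07 on slide 1 and 0.64 on slide 2, the slides differed (adjusted p = 0.0108), and 1 of its 4 other probes had the opposite sign (-0.12). Bhlhe41 (0.51, adjusted p = 0.0327), a factor of B-1 cells, lost its call in 9 alternatives. It was higher on slide 1 (1.52) and -0.50 on slide 2, and the slides differed (adjusted p = 0.00152). Id2 (-0.48) and Tcf12 (-0.35) had adjusted p of 0.0374 and 0.0298 and lost their calls in 12 and 9 alternatives. Rel was called lower (adjusted p = 0.0391) with slide 1 alone passing, where 1 wild-type array and no deficient one exceeded background clearly, so no fold is given; with normexp its adjusted p was 0.18. With array medians as the scale the list had 3 higher and 1 lower.

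Enhancer cofactors, 21 subunits of acetyltransferases, Mediator, chromatin remodellers, deacetylase complexes and cohesin, had 2 higher and 1 lower, with a median of 0.04. Ino80, the ATPase of a remodelling complex that Yy1 joins, was higher by 0.74 (SE 0.058, adjusted p = 1.16e-06) on its brighter probe and differed by 0.07 on the other. Group means of the first were 0.08 against -0.51 on slide 1 and 0.55 against -0.35 on slide 2. Ep300, a histone acetyltransferase of enhancers, was higher by 0.25 (adjusted p = 0.0491) and lost its call in 16 of 20 alternatives. Stag2, a cohesin subunit, fell by 0.22 (adjusted p = 0.00734), and with array medians as the scale its adjusted p was 0.0839.

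Of 21 genes known to be activated by 1 or more of the 10 factors, 2 rose and 5 fell, and the median was -0.10. Cxcr5, the follicle-homing receptor known as an early Oct-2 and Pou2af1 target, rose by 0.28 (SE 0.057, adjusted p = 0.00457). The slides differed for it (adjusted p = 0.0338), at 0.08 for slide 1 and 0.48 for slide 2. Cd36, a scavenger receptor and Oct-2 target, fell by 1.35 (SE 0.218, adjusted p = 0.000871). The wild-type mean was 1.32 and the deficient mean -0.01 on slide 1, and 0.28 and -1.08 on slide 2. Vpreb3, which associates with immunoglobulin chains during their assembly, fell by 0.66 (adjusted p = 0.011). These 3 held in all 20 alternatives. Cr2, a complement receptor, was the other one lower, by 0.39, and is named outside the rule of largest changes.

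Further Oct-2 targets lost the call in some. Crisp3 (-0.83, adjusted p = 0.0282) did so in 8, and was -1.58 on slide 1 and -0.09 on slide 2 (slides differed, adjusted p = 0.0489). Il5ra (-0.76, adjusted p = 0.0432) did so in 15, and was 0.66 on slide 1 and -2.18 on slide 2. Cd22, an inhibitory B cell receptor, was higher by 1.07 (SE 0.327, adjusted p = 0.0369) and lost its call in 11 alternatives. The Pax5 and Ebf1 targets Cd79a, Cd79b and Blnk had values of 0.18, 0.07 and -0.09, none of which passed.

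Of 14 genes known to be repressed by the factors, 11 were measured, 2 rose and 1 fell, and the median was -0.02 (0.02 with array medians). Grap2, a signalling adaptor that Pax5 represses, rose by 0.73 (SE 0.089, adjusted p = 7.45e-05) and its second probe by 0.37. Flt3, a cytokine receptor repressed by Pax5, rose by 0.49 (SE 0.117, adjusted p = 0.0109), the same on slide 1 and slide 2 (0.49 and 0.49), and its other 2 probes gave 0.03 and 0.42. Vpreb1, a surrogate light chain gene, fell by 0.48 (adjusted p = 0.0119), and is also among the immature B cell markers. These 3 held in all 20 alternatives.

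**Figure D4:**
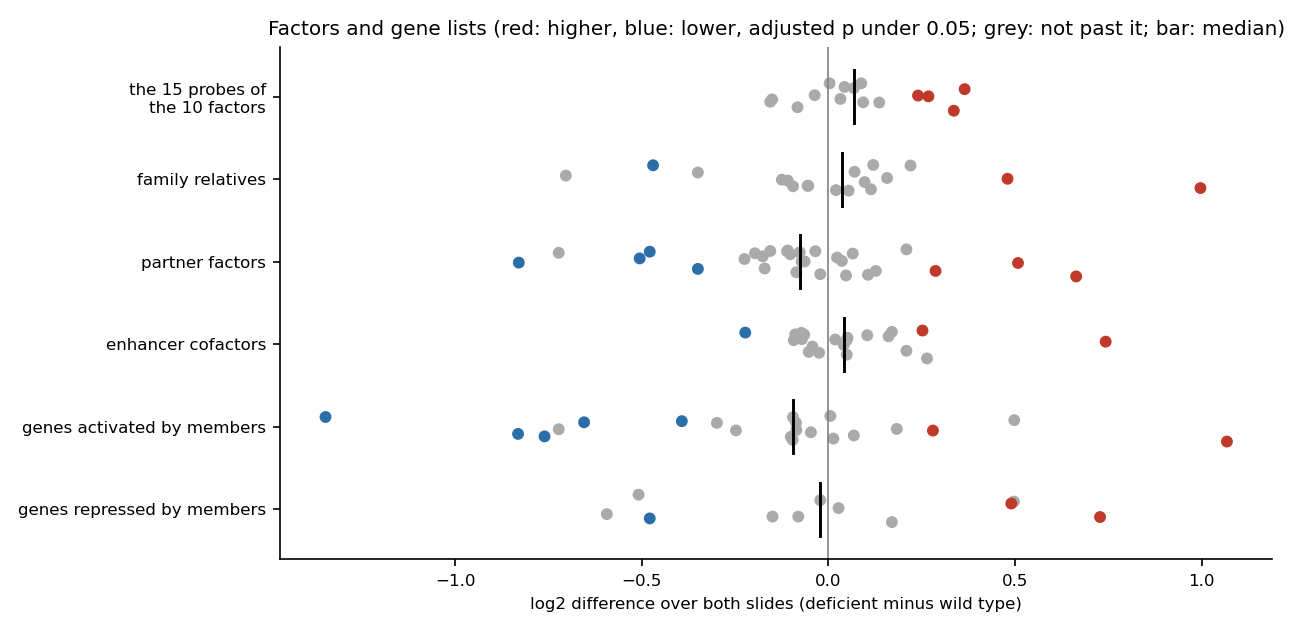
Log2 difference over both slides, deficient minus wild type (horizontal axis), of the 15 probes and of the genes of each list (rows; points, probes or genes; red, higher and blue, lower at an adjusted p under 0.05; bars, medians). Medians lie between -0.10 and 0.07, and each gene list has red and blue points while the 15 probes have red points only. The top row is fitted by probe and the lists by gene, so their calls are not on the same footing. Fitted by brightest probe per gene, as the lists are, the 10 genes had 2 higher and 1 lower, Yy1 (limma adjusted p = 0.0429).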

How the data were processed

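Total RNA of B220+ splenic B cells was labelled with Cy3 and hybridised to 1 array per sample. The deposited scanner files hold spot intensity from Agilent Feature Extraction 10.7.3.1, background-subtracted within the array by the authors' scanner software and not scaled between arrays, per the file headers, with probe coordinates in mm9. The authors' deposited value table holds log2 values of the same arrays with a median of 5.58 to 5.6 on slide 1 and 6.49 to 6.5 on slide 2; its centring is not given in the sources used here, and it served only as an alternative within slides. The submitters' processing notes name limma without a role.

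Each array's processed signals were divided by their 75th percentile (576.1 to 850.8 on slide 1, 596.2 to 990.5 on slide 2) and put on a log2 scale, controls and outlier spots were left out (128 of the probes kept lack an array; none of the 15 does), and spots of a probe were averaged. Probes flagged well above background by at least 4 of the 16 arrays (32881) were fitted in limma 3.58.1 (R 4.3.3) with a mean per genotype and slide, 4 in all, and p-values were adjusted by Benjamini-Hochberg over all of them. The number of arrays, 4 a group, limits the precision. The fit was checked on simulated data, with differences added to probes drawn at random from those kept. Over both slides it called 4% of log2 differences of 0.25, 50% of 0.5, 80% of 1 and 98% of 2. Only 50 probes of each size were changed among 32753, while 16.8% of probes were called in the data, so the adjustment was stricter in the simulation. Probes drawn at random also spread more than most of the 15. These shares therefore do not give the recovery for the 15 probes. Alternatives were array-median or quantile scaling, normexp background (offset 50), other filters, 1 value per gene, slide as a block or fitted alone, a trended robust prior, array weights, the authors' table, a replicate block, and leaving out each array.

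Every one of the 10 genes is named with every probe; from each list, up to 4 genes higher and 4 lower with the largest called differences over both slides are named. The 10 genes and the lists were chosen with earlier results of these data known. Promoter windows are from RefSeq; 14 of the 15 probe accessions matched its gene table. Some genes of these lists are not reported here by name.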

Additional observations from a re-analysis of the deposited data

Results flagged for a closer look

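For 4 probes the difference between genotypes was not the same on the 2 slides by limma's test of the slide 2 difference minus the slide 1 difference. The value was 0.58 for Ikzf1 probe A_66_P124139 (adjusted p = 0.00479), 0.47 for Yy1 (adjusted p = 0.0107), 0.47 for Ebf1 (adjusted p = 0.0355) and 0.32 for Pax5 probe A_55_P2126394 (adjusted p = 0.0419). For that Ikzf1 probe the slide 1 and slide 2 differences both passed in the fit of both slides together, with opposite signs, -0.26 and 0.32. The other Ikzf1 probes passed on neither slide. With slide 1 fitted alone the slide 1 call was lost (limma adjusted p = 0.137). Of the alternatives run, 10 of 25 lost the slide 1 call and 5 of 27 the slide 2 call. Slide and scan coincide, and no label ties an array to a mouse, so slide, scan and animals cannot be told apart.

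In the deficient group of slide 1, replicate 12 stood apart from the other arrays with Ikzf1 probe A_66_P124139, at 2.96 against 2.80 to 2.82. Its gap was 0.875 of the group's range, above Dixon's critical value for 4 arrays at the 95% level. This was 1 of 60 groups of 4 arrays, where chance flags about 1 in 20.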

How the results depend on the processing

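Of 32 other settings, those that moved a count of called probes by over 1.5 times were as follows. Array-median scaling left 2 calls on slide 1 (main count 4). Without a filter, which adjusts over more probes, there were 2 calls over both slides (main count 4), 2 on slide 1, 1 on slide 2 (main count 3) and 2 for the difference between slides (main count 4). Taking 1 value per gene, by brightest probe or mean, gave 1 call on slide 2, and the mean gave 8 for slide 2 minus slide 1 (main count 13). Slide 1 fitted alone gave 2 calls for the difference on slide 1 (main count 4), and array weights gave 8 on slide 2 (6 higher, 2 lower). Leaving out 1 array gave 3 to 5 calls over both slides, 2 to 6 on slide 1, 1 to 5 on slide 2, 2 to 5 for the difference between slides and 13 to 14 for slide 2 minus slide 1. The level of Ikzf1 A_66_P124139, slide 2 minus slide 1, was 0.08 and turned to -0.26 with array medians and -0.13 with quantile normalization.

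With the replicate number as a block on numbers 1 to 3 of slide 2, limma called 0 of the 15 probes, and 6 had an unadjusted p under 0.05; over all probes the block left 644 higher and 956 lower. The same 6 arrays without the block, a setting added after seeing the data, gave 4 calls. Same-numbered arrays deviated together with correlations of 0.014, 0.095 and 0.063, and unlike-numbered pairs with -0.157 to 0.152. These values cannot settle whether arrays of one number belong together, and the labels do not say. The cause of the lost calls was not tested. The authors' table kept both Pou2f2 calls, as it did those of Pax5 A_51_P122855 and Pou2af1 over both slides. For slide 2 minus slide 1, 65.3% of called probes were higher, and 51.1% with array medians. Over all settings, single-probe values lost a call 79 times and gained one 46 times with their direction kept. The 15 probes were well above background on every array.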
